A study of Mus musculus with 4 samples.

Results

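The collagen genes were examined in whole lung of mice with sickle cell disease and of wild-type mice. Members were all genes with a symbol of the form Col, number, a, number that had a probe set of their own on the array. This gave 43 collagen genes of 30701 genes in all, each with 1 probe set. Col7a1, the chain of anchoring fibrils, shared its probe set with the microRNA gene Mir711 and was therefore left out. Its shared probe set read 5.53 and 5.42 for WT and 5.36 and 5.46 for SCD. Gene expression had been measured on 4 Affymetrix arrays, 2 from wild-type mice of strain C57/BL6 (WT) and 2 from mice whose strain is labelled SCD Tg (SCD, sickle cell disease). All mice were adult and age-matched and were cervically euthanized, and no treatment is named for either group. The SCD line, its transgene and the promoter that drives it, the background strain of the SCD mice and the exact age and sex of the animals were not stated in the labels. No label ties the arrays to individual animals, and p-values therefore measure only the spread between these samples, which may be technical. The precision of every value is limited by the number of arrays.

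Collagens are the main structural proteins of the extracellular matrix. Each molecule is a triple helix of 3 chains, which may be products of the same gene or of different genes, and its class sets what it builds. Fibrillar collagens form the fibres that give tissue its tensile strength, type IV collagens form the sheet of basement membranes, and type VI collagen forms beaded filaments around cells. In the lung, types I and III make up much of the fibre network of airways, vessels and alveolar septa, and a type IV network of alpha 3, alpha 4 and alpha 5 chains lies in the alveolar basement membrane.

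Values are the deposited expression values on a log2 scale, and differences are SCD minus WT on that scale ± standard error (SE) as estimated by limma (n = 2 arrays in each group). A gene was called changed where its p-value, adjusted over all 30701 genes with the Benjamini-Hochberg method, was under 0.05. A reference for dim signals was the median of the 5222 negative control probe sets, 6.38 over all arrays. It was 6.48 and 6.47 for WT and 6.31 and 6.27 for SCD, so that it was itself lower on the SCD arrays. The median of the 1324 positive control probe sets was higher on the SCD arrays, with 10.01 and 10.15 in WT and 10.26 and 10.29 in SCD. The part of these control shifts in the results was not tested. Signals of different probe sets are not strictly comparable with each other. Where genes are called dim or bright below, or are sorted by the negative control median, signal is only a rough guide. Sums over a marker list are compared between arrays only. Of 8 lung epithelial markers, 7 lay above the negative control median and 0 were called. Nkx2-1 was the dim one, with 5.95 and 6.17 in WT and 6.03 and 5.99 in SCD. The surfactant gene Sftpb read 16.76 and 16.85 in WT and 16.71 and 16.73 in SCD. The epithelial adhesion genes Epcam (0.39 ± 0.09) and Cdh1 (0.37 ± 0.07) were higher on both SCD arrays and did not pass. The bright genes Sftpc and Scgb1a1 read 19.93 on all 4 arrays, the highest value in the table, and give no direction.

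Of the 43 collagen genes, 3 fell in SCD lung and 0 rose in the limma test: the fibrillar genes Col3a1 and Col1a1 and Col12a1, whose product coats fibrils. The 3 lower calls are 6.98% of the collagens, beside a background of 0.635% of all genes called lower. Over all genes 3.09% were called, with 2.46% called higher. At an unadjusted p under 0.05, 12 collagens (27.9%) were lower and 1, Col8a1 (2.33%), was higher, beside 6.07% and 10.6% of all genes, or 16.7% in either direction. Differences lay below 0 for 39 of the 43 genes and ranged from -1.11 (Col3a1) to 0.64 (Col8a1), with a median of -0.13, while 49.7% of all genes lay below 0 and their median was 0.00. Both SCD arrays read below both WT arrays for 27 collagens, which is 62.8% beside a background of 22.5% of all genes, and above them for 2, beside a background of 25.3%. In whole tissue, fewer cells of a type and less RNA per cell cannot be told apart.

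**Figure D1:**
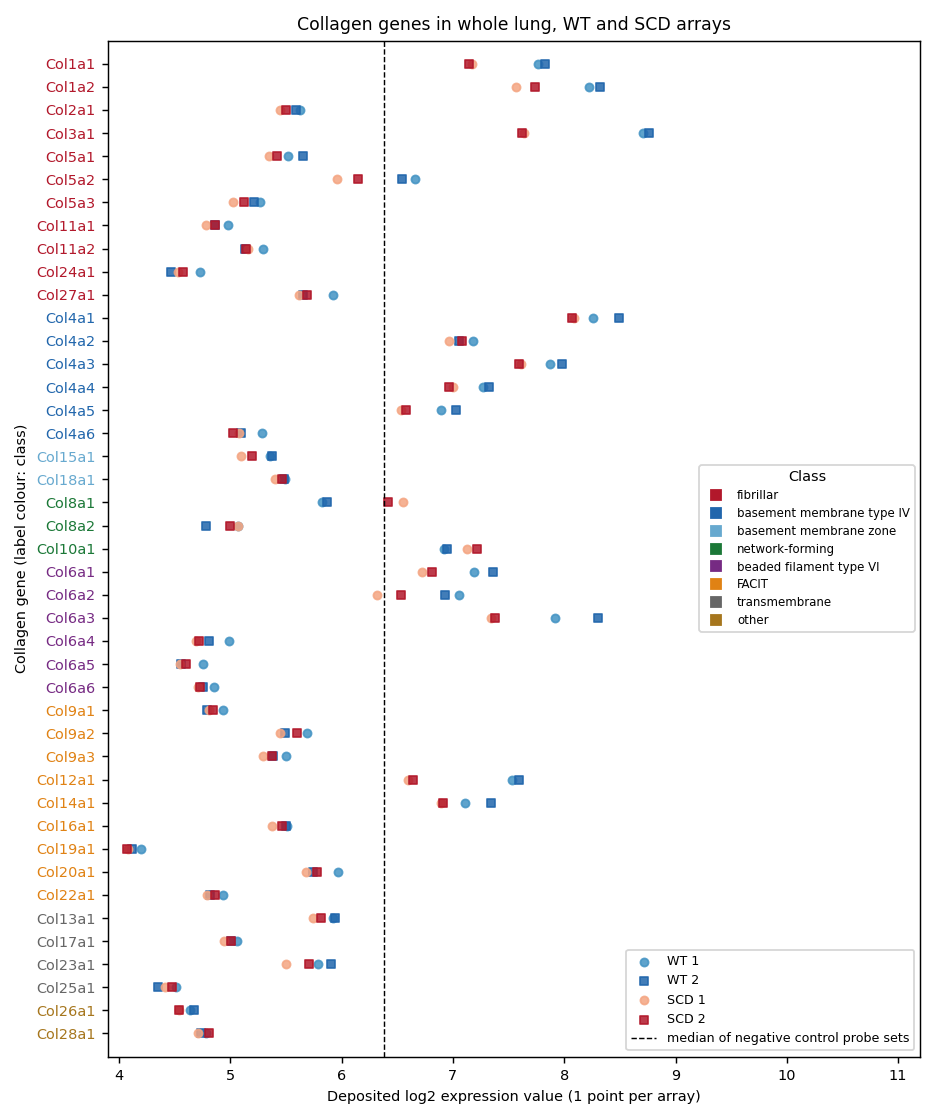
Deposited log2 expression value (horizontal axis) of each of the 43 collagen genes (vertical axis, label colour by class) on each of the 4 arrays, 2 WT (blue) and 2 SCD (orange and red). The dashed line is the median of the negative control probe sets, 6.38. Col3a1, Col12a1 and Col1a1 show both SCD points well to the left of both WT points, and Col8a1 shows the opposite order.

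The size of the differences went with signal. The mean over the 4 arrays was above the negative control median for 14 collagens, and among these 13 were below 0, with a median difference of -0.46 and a range from -1.11 to 0.25. Both SCD arrays read below both WT arrays for 12 of the 14, beside a background of 22.3% of the 12890 genes above that median. All 3 calls were among these 14, beside a background of 1.3% of such genes called lower and 5.37% called higher. The other 29 collagens, at or under the negative control median, had a median difference of -0.09 and 0 calls in limma, with 1 lower (Col5a2) and 1 higher (Col8a1) at an unadjusted p under 0.05. That is 3.45% each way, near the 4.15% lower and 4.35% higher among all genes at or under that median. Of these dim collagens 26 were below 0, or 89.7%, beside 55.5% of all genes at or under that median.

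**Figure D2:**
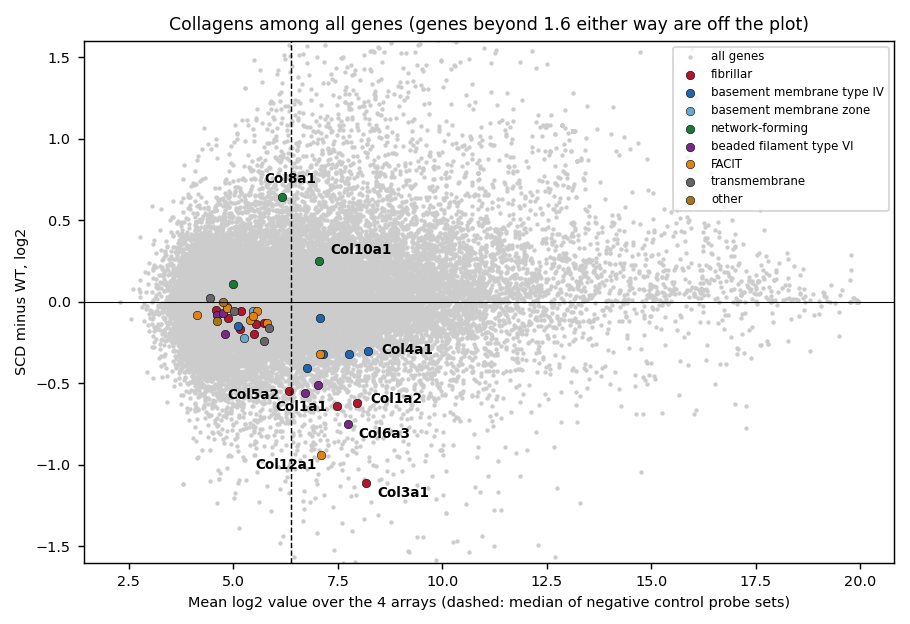
SCD minus WT difference (vertical axis, log2) against the mean log2 value over the 4 arrays (horizontal axis), with all genes in grey and collagens coloured by class. The vertical range stops at 1.6 in both directions. Collagens left of the dashed line, the median of the negative control probe sets, have a median of -0.09 and run from -0.55 (Col5a2) to 0.64 (Col8a1). Those to its right have a median of -0.46.

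Among the 11 fibrillar collagen genes, 2 fell (18.2%), 0 rose and 9 were not called, beside 0.635% of all genes called lower. All 11 differences were below 0, with a median of -0.17, beside 49.7% of all genes below 0. Of the 11, 3 lay above the negative control median. Of all genes at or under that median, 55.5% were below 0. Col3a1, which encodes the single chain of type III collagen of distensible tissues such as vessel walls, read 8.71 and 8.76 in WT and 7.64 and 7.62 in SCD. The groups lay far apart relative to the spread within them. Col3a1 fell by 1.11 ± 0.10 (2.15-fold lower, adjusted p = 0.00894 in limma) and ranked 52 by size among the 195 genes called lower. Col1a1, the alpha 1 chain of type I collagen, read 7.76 and 7.83 in WT and 7.17 and 7.14 in SCD. It fell by 0.64 ± 0.10 (1.56-fold lower, adjusted p = 0.0464), close to the threshold. Col1a2, whose product joins alpha 1 chains in the type I trimer, read 8.22 and 8.32 in WT and 7.57 and 7.74 in SCD. Its difference of -0.62 ± 0.11 was similar in size to that of Col1a1 but did not pass (adjusted p = 0.0686 in limma, 95% interval from -0.91 to -0.33).

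Col5a2, a type V chain that is built into type I fibrils and lies next to Col3a1 on chromosome 1, read 6.66 and 6.54 in WT and 5.96 and 6.15 in SCD. Both SCD arrays were lower, and the difference of -0.55 ± 0.12 did not pass (adjusted p = 0.11 in limma). Its trimer partner Col5a1 differed by -0.20 ± 0.12 and the other type V gene, Col5a3, by -0.17 ± 0.11, neither of them called. The cartilage collagen gene Col2a1 and the type XI genes Col11a1 and Col11a2 differed by -0.14, -0.10 and -0.06, and Col24a1 and Col27a1 by -0.05 and -0.13. These 5 genes were dim, with values between 4.47 and 5.92 on all arrays, and the SCD and WT arrays overlapped for Col11a1, Col11a2, Col24a1 and Col27a1.

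The call of Col1a1 was lost in limma in 4 of 12 alternative fits on all arrays, among them those with equal array medians (adjusted p = 0.0506), without the intensity trend (0.0635) and with every transcript cluster tested (0.117), and it was lost with any 1 array left out (from 0.1 to 0.318). Among the alternatives run, the call of Col3a1 was lost only without SCD replicate 1 (adjusted p = 0.123) or without SCD replicate 2 (0.127), fits in which limma called 0 of all genes.

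The promoter windows of Col3a1 and Col1a2 are shown because their transcripts were both lower on both SCD arrays. Windows run from 250 bases before to 50 bases after the annotated start (RefSeq, GRCm38.p6), and the table held 1 or more for 34 of the 43 collagens; Col1a1, Col5a2 and Col12a1 are not among them. Capitals mark matches on either strand to the CCAAT box (CCAAT), the TATA box (TATAAA) and the GC box bound by Sp1 (GGGCGG). These 3 motifs do not overlap each other in the windows printed here.
Col3a1 (chr1:45311288-45311587, plus strand): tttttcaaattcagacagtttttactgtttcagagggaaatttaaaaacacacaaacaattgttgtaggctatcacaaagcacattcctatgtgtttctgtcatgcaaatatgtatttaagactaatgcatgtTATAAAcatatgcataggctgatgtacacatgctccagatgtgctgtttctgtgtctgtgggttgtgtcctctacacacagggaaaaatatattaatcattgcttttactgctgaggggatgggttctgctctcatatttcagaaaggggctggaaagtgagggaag
Col1a2 (chr6:4505368-4505667, plus strand): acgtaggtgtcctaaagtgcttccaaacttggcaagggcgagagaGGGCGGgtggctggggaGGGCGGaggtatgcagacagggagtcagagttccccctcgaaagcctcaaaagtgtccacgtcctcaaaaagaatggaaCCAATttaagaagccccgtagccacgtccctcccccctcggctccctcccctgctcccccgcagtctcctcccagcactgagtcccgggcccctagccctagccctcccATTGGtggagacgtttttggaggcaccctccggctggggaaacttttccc
The Col3a1 window held 1 TATAAA match, starting 117 bases before the start, and no match to the other motifs. The Col1a2 window held 2 CCAAT matches and 2 GGGCGG matches, the latter starting 205 and 188 bases before the start. A CCAAT match was present in 32.4% of the 37 collagen windows and in 37.4% of all 32851 windows, TATAAA in 13.5% and 13.6%, and GGGCGG in 59.5% and 35.7%. A match is a description of these letters and no evidence of binding.

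Col12a1 was the other collagen that fell. It encodes the chain of type XII collagen, a FACIT collagen (fibril-associated collagen with interrupted triple helices) that sits on the surface of type I fibrils. Col12a1 read 7.53 and 7.59 in WT and 6.60 and 6.64 in SCD, with no overlap. It fell by 0.94 ± 0.10 (1.92-fold lower, adjusted p = 0.0165 in limma). With every transcript cluster tested the adjusted p was 0.0561, and with any 1 array left out it ran from 0.0576 to 0.179.

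The other 8 FACIT genes were not called, and the class of 9 had a median difference of -0.09. Col14a1, which encodes another collagen on the surface of fibrils, read 7.11 and 7.34 in WT and 6.89 and 6.91 in SCD. Its difference of -0.32 ± 0.12 did not pass (adjusted p = 0.292 in limma), although both SCD arrays were lower. The type IX genes Col9a1, Col9a2 and Col9a3, whose products form 1 trimer in cartilage, differed by -0.03, -0.06 and -0.11, and the arrays of Col9a1 and Col9a2 overlapped between groups. Col16a1, Col19a1, Col20a1 and Col22a1 were dim and differed by -0.09, -0.08, -0.13 and -0.04.

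Type VI collagen, a trimer of the Col6a1, Col6a2 and Col6a3 products around fibroblasts and muscle cells, was lower on both SCD arrays for all 3 chains, none of them called. Over all genes, 22.5% were lower on both SCD arrays. Col6a1 read 7.19 and 7.36 in WT and 6.72 and 6.81 in SCD. Col6a2, its neighbour on chromosome 10, read 7.05 and 6.93 in WT and 6.32 and 6.53 in SCD. Col6a3 read 7.92 and 8.30 in WT and 7.34 and 7.38 in SCD, and its 2 WT arrays stood further apart than those of the other chains. The differences of -0.51 ± 0.12, -0.56 ± 0.12 and -0.75 ± 0.15 had adjusted p-values of 0.109, 0.103 and 0.0862 in limma, and the 95% interval for Col6a3 ran from -1.14 to -0.36. With the shift of the positive controls taken off every SCD value, these 3 genes and Col1a2 were called lower too, which made 7 collagens. That step moves the median of all genes from 0.00 to -0.19. The genes Col6a4, Col6a5 and Col6a6, which lie next to each other on chromosome 9 and encode chains related to the alpha 3 chain, were dim, with values from 4.55 to 4.99 and differences of -0.20, -0.08 and -0.07.

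**Figure D3:**
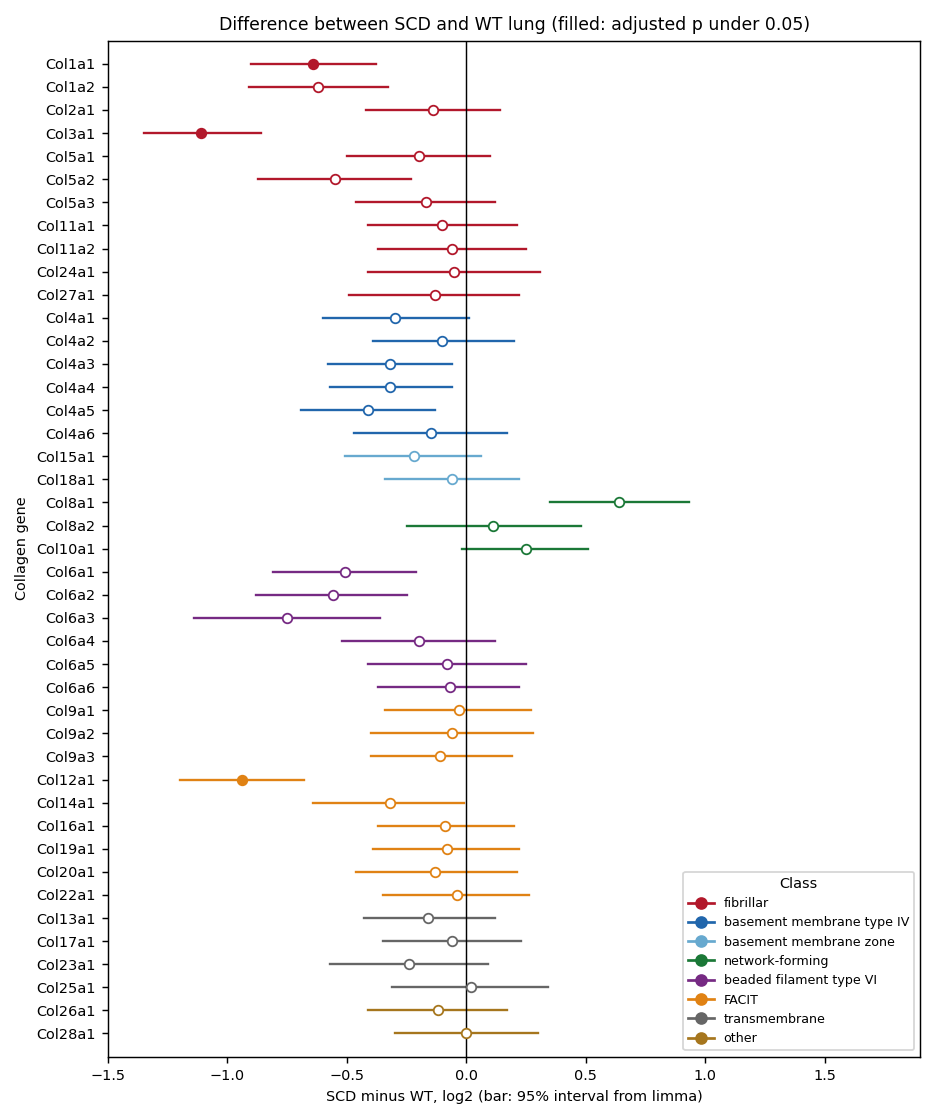
SCD minus WT difference (horizontal axis, log2) of each collagen gene (vertical axis), with the 95% interval from limma as a bar and colour by class. Filled points, those of Col3a1, Col12a1 and Col1a1, had an adjusted p under 0.05. Col1a1, Col1a2 and Col6a1 to Col6a3 lie between -0.51 and -0.75, the type IV chains between -0.10 and -0.41, and the 3 network-forming genes at or above 0.11.

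Of the 6 type IV genes of basement membranes, none was called. In limma 3 were lower at an unadjusted p under 0.05, beside 6.07% of all genes lower and 16.7% in either direction. All 6 differences were below 0, beside 49.7% of all genes, with a median of -0.31. Both SCD arrays were lower for 5 of them (83.3%), beside a background of 22.5% of all genes. Col4a3, Col4a4 and Col4a5, whose products form the alveolar and glomerular network, showed close to the same difference. Col4a3 read 7.87 and 7.98 in WT and 7.61 and 7.59 in SCD. Col4a4, its neighbour on chromosome 1, read 7.27 and 7.32 in WT and 7.0 and 6.96 in SCD. Col4a5, on chromosome X, read 6.89 and 7.03 in WT and 6.53 and 6.58 in SCD. Their differences of -0.32 ± 0.10, -0.32 ± 0.10 and -0.41 ± 0.11 had adjusted p-values of 0.214, 0.215 and 0.158 in limma, with groups that did not overlap.

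Col4a1 and Col4a2 encode the chains of the widespread type IV network of vessels and epithelia. Col4a1 read 8.26 and 8.49 in WT and 8.09 and 8.07 in SCD, a difference of -0.30 ± 0.12 (95% interval from -0.60 to 0.01, adjusted p = 0.315 in limma). Col4a2 read 7.18 and 7.05 in WT and 6.96 and 7.08 in SCD, so that the groups overlapped, with a difference of -0.10 ± 0.11. Whether the 2 partners differed from each other was not tested. Both genes lie next to each other on chromosome 8 and are transcribed in opposite directions from annotated starts 21 bases apart. The window of Col4a2 is shown because it also covers the start of Col4a1, with 78 bases in both windows.
Col4a2 (chr8:11312555-11312854, plus strand): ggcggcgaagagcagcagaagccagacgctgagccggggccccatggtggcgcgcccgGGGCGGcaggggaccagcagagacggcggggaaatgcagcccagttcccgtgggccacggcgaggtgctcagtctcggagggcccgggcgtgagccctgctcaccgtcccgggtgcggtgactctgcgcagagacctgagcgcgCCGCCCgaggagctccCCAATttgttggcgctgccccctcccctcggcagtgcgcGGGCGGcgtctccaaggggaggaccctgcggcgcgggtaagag
This window held 1 CCAAT match and 3 GGGCGG matches on either strand, marked in capitals as above. Col4a6, the neighbour of Col4a5 on chromosome X, was dim and differed by -0.15 ± 0.12. In the zone beside the basement membrane, Col15a1 and Col18a1, whose products release the antiangiogenic fragments restin and endostatin, were dim and differed by -0.22 ± 0.11 and -0.06 ± 0.11. The SCD arrays of both lay below the WT arrays, as for 22.5% of all genes, and neither was called.

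The network-forming collagens stood on the other side of 0, and none was called. Col8a1, which encodes a short-chain collagen made by vascular smooth muscle and endothelial cells, read 5.82 and 5.87 in WT and 6.55 and 6.42 in SCD. Both SCD arrays were higher, and the difference of 0.64 ± 0.11 (1.56-fold, 95% interval from 0.35 to 0.93) narrowly missed the threshold over all genes (adjusted p = 0.0603 in limma). It passed when the dimmest 25% or 50% of genes were left out (adjusted p = 0.0484 and 0.0379). Its WT mean of 5.85 lay below the negative control median. Col10a1, known as the collagen of hypertrophic cartilage, read 6.92 and 6.95 in WT and 7.13 and 7.22 in SCD, a difference of 0.25 ± 0.10 (adjusted p = 0.332). Col8a2, the type VIII partner chain, read 5.07 and 4.78 in WT and 5.07 and 5.0 in SCD, with a difference of 0.11 ± 0.14 that turned to -0.08 with the shift of the positive controls removed. The Col8a1 window is shown as that of the collagen with the largest difference above 0.
Col8a1 (chr16:57754688-57754987, minus strand): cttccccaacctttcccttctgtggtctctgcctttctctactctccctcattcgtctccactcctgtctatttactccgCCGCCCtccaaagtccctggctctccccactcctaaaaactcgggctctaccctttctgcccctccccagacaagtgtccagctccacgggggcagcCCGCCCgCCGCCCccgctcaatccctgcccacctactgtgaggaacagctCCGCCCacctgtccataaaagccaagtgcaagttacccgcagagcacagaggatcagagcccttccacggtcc
It held 4 GGGCGG matches, all on the reverse strand, starting 170, 73, 66 and 23 bases before the start, and no CCAAT or TATAAA match.

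The remaining collagens were dim and not called. The transmembrane genes Col13a1, Col17a1, Col23a1 and Col25a1 differed by -0.16, -0.06, -0.24 and 0.02, with groups that overlapped for Col17a1 and Col25a1. The difference of Col25a1 turned to -0.18 when the shift of the positive controls was removed. Col17a1 encodes the hemidesmosome collagen of basal epithelial cells. Col26a1 differed by -0.12 ± 0.11. Col28a1 read 4.78 and 4.74 in WT and 4.71 and 4.81 in SCD, a difference of 0.00 ± 0.12.

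The genes that make, secrete, cut, bind and degrade collagens were read from 6 lists. Of 72 such genes, 4 rose and 0 fell, which is 5.56% beside the background of 2.46% called higher, and their median difference was 0.06. All 4 were among the 54 of these genes above the negative control median. Of all genes above it, 5.37% were called higher and the median difference was 0.05. Mmp8 was among the 54 only through its SCD arrays, with a mean of 5.94 in WT and 7.62 in SCD. In the list of chain modification and folding, 2 of 19 rose and 17 were not called, with a median of 0.20. Of these 19 genes, 17 lay above the negative control median. Both SCD arrays were higher for 12 of the 19 (63.2%), beside 36.4% of all genes above that median. Serpinh1, the collagen chaperone HSP47 of the endoplasmic reticulum, read 15.21 and 15.19 in WT and 15.73 and 15.76 in SCD and rose by 0.55 ± 0.06 (adjusted p = 0.0139 in limma). With the mean of its probe sets in place of the brightest, Serpinh1 differed by 0.38 and was not called (adjusted p = 0.115). P4ha2, a catalytic subunit of the prolyl 4-hydroxylase that stabilises the helix, read 7.33 and 7.31 in WT and 7.98 and 8.0 in SCD and rose by 0.67 ± 0.10 (adjusted p = 0.0377). The beta subunit gene P4hb (0.26 ± 0.07) and the prolyl isomerase gene Ppib (0.20 ± 0.09) did not pass. The lysyl hydroxylase gene Plod2 (-0.35 ± 0.10) and the collagen galactosyltransferase gene Colgalt2 (-0.43 ± 0.10) lay below 0 and did not pass.

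Of 11 genes of propeptide removal and crosslinking, 0 were called in limma, with 4 at an unadjusted p under 0.05, beside 16.7% of all genes, and a median of 0.01. The crosslinking enzyme gene Lox read 7.85 and 8.24 in WT and 8.79 and 8.77 in SCD (0.74 ± 0.15, adjusted p = 0.0902). Loxl1, whose product crosslinks elastin, read 9.57 and 10.04 in WT and 9.09 and 9.11 in SCD (-0.71 ± 0.17, adjusted p = 0.13). The procollagen C-proteinase gene Bmp1 (-0.10 ± 0.10) and the enhancer genes Pcolce (0.01 ± 0.14) and Pcolce2 (-0.25 ± 0.10) did not pass. Of 14 genes of fibril-binding proteoglycans and proteins, Ogn rose, 13 were not called and the median was 0.01. That is 7.14% called higher, beside 2.46% of all genes and 5.37% of those above the negative control median, where 12 of the 14 lay. Ogn, which encodes the small proteoglycan osteoglycin, read 15.32 and 15.56 in WT and 16.13 and 16.27 in SCD and rose by 0.76 ± 0.10 (adjusted p = 0.0309 in limma). Sparc, a collagen-binding matrix protein gene, differed by -0.13 ± 0.08, and Sparcl1 by -0.02 ± 0.08; the small proteoglycan genes Dcn and Bgn differed by 0.14 ± 0.10 and 0.08 ± 0.06, and Lum by -0.35 ± 0.13.

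Of 9 collagen receptor genes, none was called, and 1 had an unadjusted p under 0.05, a share below the 16.7% of all genes. It was Ddr2 (0.36 ± 0.11), the receptor kinase for fibrillar collagens. Itgb1, the shared beta chain of collagen-binding integrins, differed by 0.17 ± 0.07, and Itga2 by 0.01 ± 0.10. Among 8 genes of collagen-degrading enzymes, Mmp8, the neutrophil collagenase, rose by 1.68 ± 0.26 (adjusted p = 0.0452 in limma), from 5.56 and 6.32 to 7.69 and 7.56. This 1 call is 12.5% of the list, beside 2.46% of all genes called higher. Both WT values of Mmp8 lay under the negative control median of their arrays, and its difference was 1.3 without WT replicate 1 and 2.06 without WT replicate 2. Beside Mmp8, the neutrophil marker S100a8 rose by 2.62 ± 0.16. Mmp2 (-0.52 ± 0.16) and Mmp14 (-0.65 ± 0.34) did not pass, and Mmp14 read 7.79 and 8.81 on the 2 WT arrays. Of 11 genes of the TGF-beta pathway and collagen transcription, 0 were called, and 2 had an unadjusted p under 0.05, a share near the 16.7% of all genes. These were the ligand gene Tgfb3 (-0.55 ± 0.13) and the receptor gene Tgfbr2 (0.51 ± 0.12). The target gene Ccn2, which encodes connective tissue growth factor, differed by 0.17 ± 0.09. The brightest genes of the list, Tgfbr1 and Smad4, differed by 0.04 ± 0.12 and -0.14 ± 0.12. In limma, the 4 increases came down to Ogn with quantile normalization repeated, to Serpinh1 with every transcript cluster tested, and to 0 without the intensity trend, where 17 of the 72 had an unadjusted p under 0.05. With the shift of the positive controls removed Serpinh1 was called higher and Colgalt2 lower. Without WT replicate 1 the calls were 2 higher (Mmp8, Serpinh1) and 2 lower (Loxl1, Mmp14), and without either SCD array there were 0, with 10 at an unadjusted p under 0.05.

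**Figure D4:**
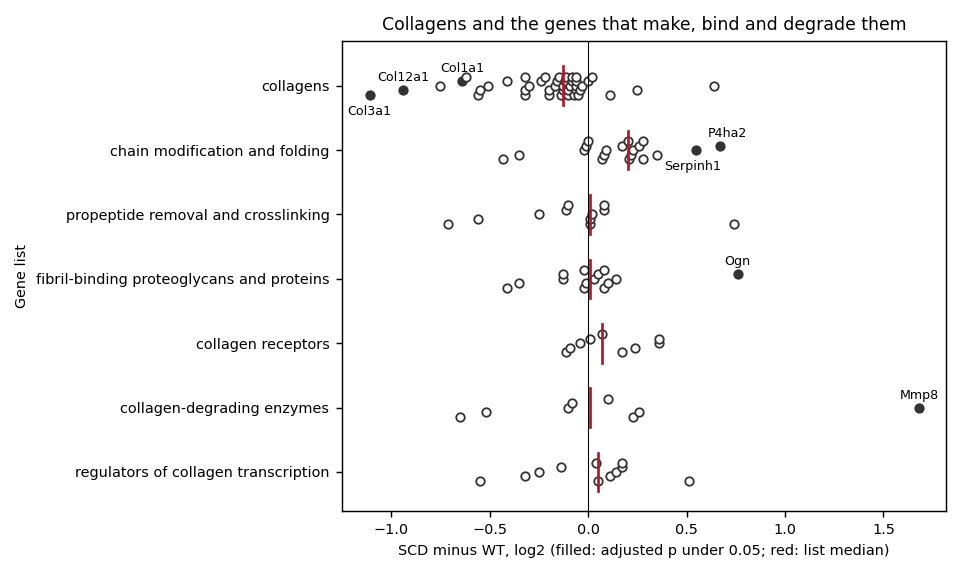
SCD minus WT difference (horizontal axis, log2) of the 43 collagens and of the genes of 6 related lists (vertical axis), 1 point per gene with a small vertical offset for visibility. Filled points had an adjusted p under 0.05 and red lines are list medians. The filled collagens lie below -0.6, and the 4 filled genes of the other lists, Serpinh1, P4ha2, Ogn and Mmp8, lie above 0.5.

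Markers of the cells that could carry collagen transcripts were read on the same arrays, and their part in the collagen results was not tested. The background for these lists was 2.46% of all genes called higher and 0.635% called lower. Of 11 measured lung fibroblast markers, 1 rose (Dpep1, 0.79 ± 0.11) and 0 fell, with 4 at an unadjusted p under 0.05, beside 16.7% of all genes. Their summed log2 values were 99.7 and 102.6 in WT and 101.7 and 100.8 in SCD, which overlap. Among them, Tcf21, a transcription factor gene of alveolar fibroblasts, differed by 0.66 ± 0.19, Npnt by -0.60 ± 0.11 and the receptor gene Pdgfrb by -0.54 ± 0.11, none called. Inmt, the brightest fibroblast marker, differed by 0.39 ± 0.22 with overlapping groups and was not called. Differences were below 0 for 7 of the 11 and above 0 for 4. Wnt2, Pi16 and Gli1 were dim, at 5.99 or less on all arrays. Of 8 smooth muscle and pericyte markers, Cnn1 rose by 0.96 ± 0.13 and 0 fell, and sums were 64.6 and 66.0 in WT and 67.1 and 67.2 in SCD. Acta2, the brightest of these 8, was higher on both SCD arrays (0.74 ± 0.13) and did not pass (adjusted p = 0.0565 in limma). Differences were above 0 for 6 of the 8 and below 0 for 2. Of 7 endothelial markers, Cdh5 fell by 0.47 ± 0.08 (adjusted p = 0.0491 in limma) and 0 rose. Differences were below 0 for 4 of them and above 0 for 3. Cldn5 (0.65 ± 0.16) was higher on both SCD arrays and Tie1 (-0.60 ± 0.10) lower, neither of them called. The call of Cdh5 was lost in 5 of 12 alternative fits on all arrays, with adjusted p-values from 0.0129 to 0.142. The endothelial sums were 75.9 and 77.0 in WT and 75.9 and 76.0 in SCD.

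Of 6 mesothelial markers, Upk3b fell by 1.03 ± 0.11 and 0 rose, with sums of 46.0 and 47.0 in WT and 44.9 and 44.7 in SCD. Differences were below 0 for 5 of them, while Krt19 (0.52 ± 0.17) was higher on both SCD arrays and not called. Upk1b, the brightest mesothelial marker, differed by -0.16 ± 0.09 and was not called. Of 5 adipocyte markers, Adipoq and Fabp4 fell by 1.33 ± 0.14 and 1.22 ± 0.10 and 0 rose, with sums of 35.9 and 36.6 in WT and 33.0 and 32.9 in SCD. In both lists the sums were lower on both SCD arrays, and Lep (0.15 ± 0.13) was the 1 adipocyte marker above 0. The background was 0.635% of all genes called lower. Of 6 cardiac muscle markers, Myl7 and Nppa rose by 1.20 ± 0.10 and 2.88 ± 0.13, with sums of 56.5 and 56.6 in WT and 62.1 and 61.9 in SCD. Of 5 leukocyte markers, Cd3e and S100a8 rose and all 5 were higher on both SCD arrays, with sums of 49.5 and 50.2 in WT and 54.7 and 54.7 in SCD. The cardiac and leukocyte markers all lay above the negative control median. Of all genes above it, 5.37% were called higher and 36.4% were higher on both SCD arrays. None of 9 cartilage markers was called or had an unadjusted p under 0.05 in limma. Their sums were 50.5 and 50.7 in WT and 50.9 and 50.7 in SCD, and the defining genes Acan, Comp and Matn1 were dim, at 5.39 or less on every array. Chad was the 1 cartilage marker above the negative control median, with 10.28 and 10.66 in WT and 10.55 and 10.65 in SCD.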

How the data were processed

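Whole lung RNA was measured on 4 Affymetrix arrays, after TRIzol extraction and biotin labelling with a 3' in vitro transcription kit, per the labels' protocols. Expression was deposited on what is taken here to be a log2 scale, and Affymetrix Expression Console, Partek and RMA are named per the submitters' processing notes, with no version, role or order. Values between 1.72 and 19.93 are the basis for that reading; the WT arrays had medians of 5.73 and 5.70, the SCD arrays of 5.68 and 5.67. Groups came from the sample titles.

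Probe sets were named through the platform annotation, with symbols updated through RefSeq (GRCm38.p6), which held 30699 of the 30701 genes. Of 72688 probe sets, 31258 had 1 gene, 1492 several and 33206 none, and 6732 were controls. Col6a4 was kept, since its second name, Dvwa, is a synonym. Where a gene had several probe sets, the one with the highest mean was used. Groups were compared in limma 3.58.1 under R 4.3.3 (lmFit, eBayes with an intensity trend, group as the only term, two-sided), on 2 residual degrees of freedom and with no filter on dim genes. On simulated data with 30701 genes, in 5 simulations, 13.0% of changes of 1 (log2) and 82.8% of changes of 2 were recovered. False calls averaged 4. The simulations changed fewer genes than the 949 called here, which makes the adjusted cutoff stricter there. These shares are therefore not the recovery in these data.

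The rule for named genes took every collagen, with values on each array for the called collagens, and the called and the brightest genes of the other lists. Values on each array were added for some collagens that were not called, and not for all trimer partners and neighbours. Other list genes that are named were picked with their values known. The members, lists and tests were chosen with earlier results of these data known. Among the genes listed, Plod3, Fkbp10, Adamts2, Loxl2, Itga1, Pdgfra, Macf1 and Actc1 had no probe set of their own. Alternatives were other scalings, filters, units tested and variance settings, the replicate number as a block, and each array left out. Arrays with the same number did not deviate together (correlation of deviations from the group means 0.00 across genes).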

Additional observations from a re-analysis of the deposited data

How the results depend on the processing

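Over all genes, limma called 949, and between 645 and 1356 in the fits on all 4 arrays. With any 1 array left out it called from 0 to 786 genes (508 without WT replicate 1), with 0 without either SCD array and then 3302 and 3267 genes at an unadjusted p under 0.05; the lone array is assumed there to vary like the other group. The share of calls that were higher was 79.5%, and 64.4% with quantile normalization repeated, 78.6% with equal medians, 71.2% with cyclic loess and 47.7% with the shift of the positive controls removed. The count of collagens called went from 3 to 7 with that shift removed, to 5 with the dimmest 50% of genes left out and to 1 (Col3a1) with every transcript cluster tested, and was 0 to 1 with any 1 array left out (Col3a1 without either WT array, and 7 and 9 collagens at an unadjusted p under 0.05 without the SCD arrays). The count for the 72 related genes went from 4 to 1 with quantile normalization repeated, 2 with the shift removed, 0 without the intensity trend and 1 with every transcript cluster tested, and was 0 to 4 with any 1 array left out. The 4 without WT replicate 1 were 2 higher and 2 lower, and those without WT replicate 2 were all higher, with Lox in place of P4ha2. The replicate number as a block called 968 genes, 813 of them among the 949, and 2 collagens, with an adjusted p of 0.0788 for Col1a1, and 3 of the 72 related genes, with 0.0675 for P4ha2. Under the 4 scalings, 38 to 41 of the 43 collagens lay below 0. Among collagens that were not called, signs turned for Col28a1 (0.03 with quantile normalization, 0.02 with cyclic loess) and, with the shift removed, for Col8a2 (-0.08) and Col25a1 (-0.18). With any 1 array left out, differences ran across 0 for Col11a2 (-0.14 to 0.02), Col24a1 (-0.18 to 0.08), Col27a1 (-0.27 to 0.01), Col8a2 (-0.03 to 0.26), Col6a5 (-0.18 to 0.01), Col9a1 (-0.10 to 0.04), Col9a2 (-0.16 to 0.04), Col22a1 (-0.10 to 0.01), Col25a1 (-0.06 to 0.10) and Col28a1 (-0.06 to 0.05). The cause of these changes was not tested.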
